A study of Mus musculus with 2 samples.

Results

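The 8 genes described here carry out the steps by which a cell shows pieces of its own proteins to CD8 T cells and natural killer cells. They were chosen by symbol from the 28692 genes in the deposited gene list, and all 8 were found. B2m encodes beta-2 microglobulin, the light chain of the class I molecule. H2-K1 and H2-D1 encode the classical heavy chains, which present peptides to CD8 T cells, and H2-T23 encodes Qa-1, a non-classical heavy chain read by CD94/NKG2 receptors. Psmb8 and Psmb9 encode catalytic subunits of the immunoproteasome, Tap1 encodes a chain of the transporter that moves peptides into the endoplasmic reticulum, and Tapbp encodes tapasin, which holds empty class I molecules at that transporter. Levels rest on unique molecular identifiers (UMIs), tags that let copies of the same captured RNA count once. UMIs were summed over a cluster's cells in a library and scaled to a fixed total (CPM). Where a pair of levels is given, chow comes first and the ketogenic diet second.

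Nearly every nucleated cell makes class I molecules. The proteasome cuts cytosolic proteins, the transporter carries the peptides to the loading complex, and a stable class I molecule leaves for the surface only once light chain, heavy chain and peptide are joined. Interferons raise most genes of the pathway, through interferon-stimulated response elements and through transcription factors such as IRF1. NLRC5, acting through a promoter module that also binds RFX, CREB and NF-Y proteins, drives their basal expression in lymphocytes.

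The study sequenced CD45+ leukocytes of visceral adipose tissue from adult wild-type C57BL/6 mice with a 10x Genomics protocol. One library came from mice on normal chow, which the labels call control, and the other from mice fed a ketogenic diet for 1 week. Labelling by intravenous injection was used to tell tissue-resident cells from blood leukocytes, in both groups. The labels do not say how many mice went into a library, and with 1 library per diet no difference between diets has a replicate check. No p-value is therefore given, and every interval covers counting error only.

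The chow library held 4545 cells and 21570910 UMIs, and the ketogenic library held 5614 cells and 26041785 UMIs. The authors' clusters, numbered 0 to 12, cover 4458 and 5559 of these cells, and 41 cell barcodes occur in both libraries. A UMI of Ptprc, which encodes CD45, was found in 82.6% of chow and 82.3% of ketogenic cells, while the adipocyte genes Lep and Adipoq had 0 and 1 UMIs in each library and the mesothelial genes Msln and Wt1 had 0 and 3. Of red cell genes Alas2 had none, but the globin gene Hba-a1 had 298 UMIs in 3.74% of chow cells and 2519 in 14.5% of ketogenic cells. The files name no cell types, so clusters were named from marker genes as resembling group 2 innate lymphoid cells (ILC2-like, cluster 0), natural killer cells (NK-like, 1), T cells (2), macrophages (3), type 2 and type 1 conventional dendritic cells (cDC2-like, 5, and cDC1-like, 6), regulatory T cells (Treg-like, 7), B and plasma cells (9), γδ T cells (11) and mature dendritic cells (mature DC-like, 12). Cluster 10 holds cycling cells of several kinds. Cluster 4, led by Ly49 and CD3 genes, and cluster 8, led by Retnla, Fcrls and Lyz1, stayed unnamed. Cell numbers differ between the libraries, with 859 and 362 chow cells in clusters 3 and 8 against 145 and 47 ketogenic cells, and 236 against 821 in cluster 2.

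In the genome (GRCm38, gene bounds from GENCODE M21), B2m lies on chromosome 2, at 122147686 to 122153083. The other 7 genes lie in the major histocompatibility complex on chromosome 17, from Tapbp, which starts at 33915899, to H2-T23, which ends at 36032855. Tap1 (34187553 to 34197225, plus strand) and Psmb9 (34181987 to 34187764, minus strand) overlap at their starts and are read in opposite directions, and Psmb8 (34197721 to 34201454) follows Tap1. H2-K1 spans 33996017 to 34000347 on the minus strand and H2-D1 spans 35262730 to 35267499 on the plus strand. The 250 bases before the RefSeq start (GRCm38.p6) are shown for 5 genes, because the results below set H2-D1 apart from H2-K1 and B2m and set Psmb8 and Tap1 apart from all 3. They are read 5′ to 3′ along the gene. Capitals mark matches, on either strand, to an interferon-stimulated response element (ISRE, GAAA and GAAA with any 2 bases between them), a kappa B site (GGGA, any base, T, any base, CCC), the X2 core bound by CREB-type factors (TGACG), the NF-Y box (CCAAT) or a GAS element (TTCNNNGAA).
B2m, chr2:122147437-122147686, plus strand: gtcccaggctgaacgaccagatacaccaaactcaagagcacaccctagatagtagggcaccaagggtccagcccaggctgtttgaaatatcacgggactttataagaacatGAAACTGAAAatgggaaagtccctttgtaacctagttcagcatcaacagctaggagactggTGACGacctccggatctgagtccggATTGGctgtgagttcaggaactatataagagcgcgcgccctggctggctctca
H2-K1, chr17:34000334-34000583, minus strand: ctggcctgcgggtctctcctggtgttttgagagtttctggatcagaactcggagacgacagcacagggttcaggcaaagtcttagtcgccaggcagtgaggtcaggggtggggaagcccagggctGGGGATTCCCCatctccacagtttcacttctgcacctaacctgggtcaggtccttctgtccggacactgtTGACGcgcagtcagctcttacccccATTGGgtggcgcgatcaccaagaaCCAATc
H2-D1, chr17:35262844-35263093, plus strand: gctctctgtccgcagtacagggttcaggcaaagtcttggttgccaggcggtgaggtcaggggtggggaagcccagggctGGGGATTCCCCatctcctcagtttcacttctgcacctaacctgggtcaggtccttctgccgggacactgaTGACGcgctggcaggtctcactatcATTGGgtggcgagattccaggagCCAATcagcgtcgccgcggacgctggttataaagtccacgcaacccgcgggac
Tap1, chr17:34187306-34187555, plus strand: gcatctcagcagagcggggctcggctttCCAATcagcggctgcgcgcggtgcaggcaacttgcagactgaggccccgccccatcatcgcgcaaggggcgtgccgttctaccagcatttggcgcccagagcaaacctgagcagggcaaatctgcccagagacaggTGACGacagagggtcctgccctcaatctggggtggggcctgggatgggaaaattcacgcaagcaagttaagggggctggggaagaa
Psmb8, chr17:34197945-34198194, plus strand: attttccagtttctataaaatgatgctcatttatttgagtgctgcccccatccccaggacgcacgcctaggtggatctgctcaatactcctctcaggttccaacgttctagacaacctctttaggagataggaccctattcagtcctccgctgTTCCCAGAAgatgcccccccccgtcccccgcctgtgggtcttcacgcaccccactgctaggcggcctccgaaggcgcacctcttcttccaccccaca
All 8 genes matched the RefSeq promoter table, whose windows run from 250 bases before to 50 after the start. The windows of Psmb8 and H2-D1, among others, lie inside the GENCODE gene bounds given above. The annotations thus place these starts apart, and the matches depend on the start used. Placed without gaps, the H2-K1 and H2-D1 windows are identical at 180 of 254 bases (70.9%), and both hold the same kappa B site, X2 core and pair of NF-Y boxes. A kappa B match is in 1.10% of all 32851 windows, and of the 8 genes only H2-K1 and H2-D1 have it. The ISRE letters are in 3.44% of windows, and among the 8 genes in those of B2m and H2-T23. The shorter IRF core AANNGAAA, not capitalised above and contained in the ISRE, is in 23.9% of windows and in those of B2m, H2-K1, H2-D1 and H2-T23. In H2-K1 and H2-D1 it reads TTTCACTT, on the other strand. TGACG is in 20.8% of windows and in those of B2m, H2-K1, H2-D1, Tap1 and Psmb9, and CCAAT is in 37.4% and in those of 7 genes, Psmb8 being the exception. The GAS letters are in 8.30% of windows and, among the 8, in that of Psmb8. The Tap1 and Psmb9 windows share 275 bases, and their RefSeq starts are 226 bases apart, so the Tap1 sequence above also covers most of the Psmb9 window, on the other strand. A match to letters is a description and not a binding site, and a missing match does not show that an element is missing.

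Across clusters, the light chain and the classical heavy chains followed one order and the immunoproteasome and transporter genes another. B2m was at 4955 to 5983 CPM in the lymphoid clusters 0, 1, 2, 4, 7 and 11 of the chow library, and at 5687 CPM in the mature DC-like cluster. It was at 3606 CPM in the macrophage-like cluster, 2564 CPM in the cDC2-like cluster and 1684 CPM in the cDC1-like cluster. Its highest chow cluster, the γδ T-like one, was thus 3.55-fold above its lowest. The ketogenic library gave 5181 to 5699 CPM in the same 6 lymphoid clusters, 7105 CPM in the mature DC-like cluster and 1806 CPM in the cDC1-like cluster.

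H2-K1 was highest in the Treg-like cluster in both libraries (3386 and 3214 CPM) and lowest in the cDC1-like cluster (596 and 644 CPM). The NK-like cluster came next to the top, at 3166 and 2996 CPM, and the counting intervals of these 2 clusters overlap. In the order by mean level, intervals of neighbours part below them, and again between the mature DC-like cluster (1949 and 2408 CPM) and the cycling cluster (1105 and 1428 CPM). As shares of RNA, the clusters of T and innate lymphoid cells therefore form an upper band of H2-K1 with the mature DC-like cluster at its foot. The cycling, macrophage-like, cDC and B and plasma-like clusters form a lower one. H2-D1 also peaked in the Treg-like cluster, at 3946 and 5001 CPM, but its lowest cluster was the B and plasma-like one, at 997 and 1719 CPM. The cDC2-like cluster, low for H2-K1 at 1016 and 1085 CPM, was at 2891 and 3212 CPM for H2-D1. H2-T23 spanned the narrowest range of the heavy chains, from 98.6 CPM in cluster 8 to 214 CPM in the NK-like cluster under chow and from 99.2 to 240 CPM under the ketogenic diet, and no step in its order exceeded the counting intervals.

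CPM is a share of all RNA captured from a cluster, and dendritic cells gave more UMIs per cell. The median was 7906 UMIs per chow cell in the cDC1-like cluster and 2611 in the ILC2-like cluster. Counted as UMIs per cell, B2m was at 13.4 in cDC1-like and 15.5 in ILC2-like chow cells, and at 17.7 and 17.2 in ketogenic cells. H2-K1 stayed lower in the cDC1-like cells, at 4.73 against 7.73 per chow cell, whereas H2-D1 was higher there, at 12.1 against 9.53. The low place of the cDC1-like cluster for B2m beside the ILC2-like one is thus wide as a share of RNA and narrow or absent per cell.

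Psmb8, Psmb9 and Tap1, which make and deliver peptides, were highest in the cDC1-like, mature DC-like and cycling clusters, while the cDC2-like cluster was lower, at 443 and 582 CPM for Psmb8, 132 and 147 CPM for Psmb9 and 68.9 and 82.5 CPM for Tap1. Psmb9 was at 481 and 462 CPM in the cDC1-like cluster, and at 82.4 and 86.2 CPM in the ILC2-like cluster, its lowest, a span of 5.83-fold and 5.36-fold. The cDC1-like cluster stood clear of the cycling cluster, next in order at 350.4 and 350.0 CPM, while the wide interval of the mature DC-like cluster (269.6 and 419 CPM) reaches into its own. Psmb8 was highest in the mature DC-like cluster, at 906 and 1295 CPM, with the cDC1-like cluster next at 863 and 1064 CPM and the ILC2-like cluster at 349 and 411 CPM. Tap1 was at 137 and 157 CPM in the cDC1-like cluster and 131 and 165 CPM in the mature DC-like cluster, against 44.6 and 50.2 CPM in the ILC2-like cluster. Tapbp was more even, with no step in its order beyond the intervals. It ranged from 90.1 CPM in the T-like cluster to 175 CPM in the cDC1-like cluster under chow, and from 103 CPM in cluster 8 to 246 CPM in the mature DC-like cluster under the ketogenic diet. H2-K1, H2-D1, Psmb8 and Psmb9, that is 4 of 8, had the same highest cluster in both libraries.

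**Figure D1:**
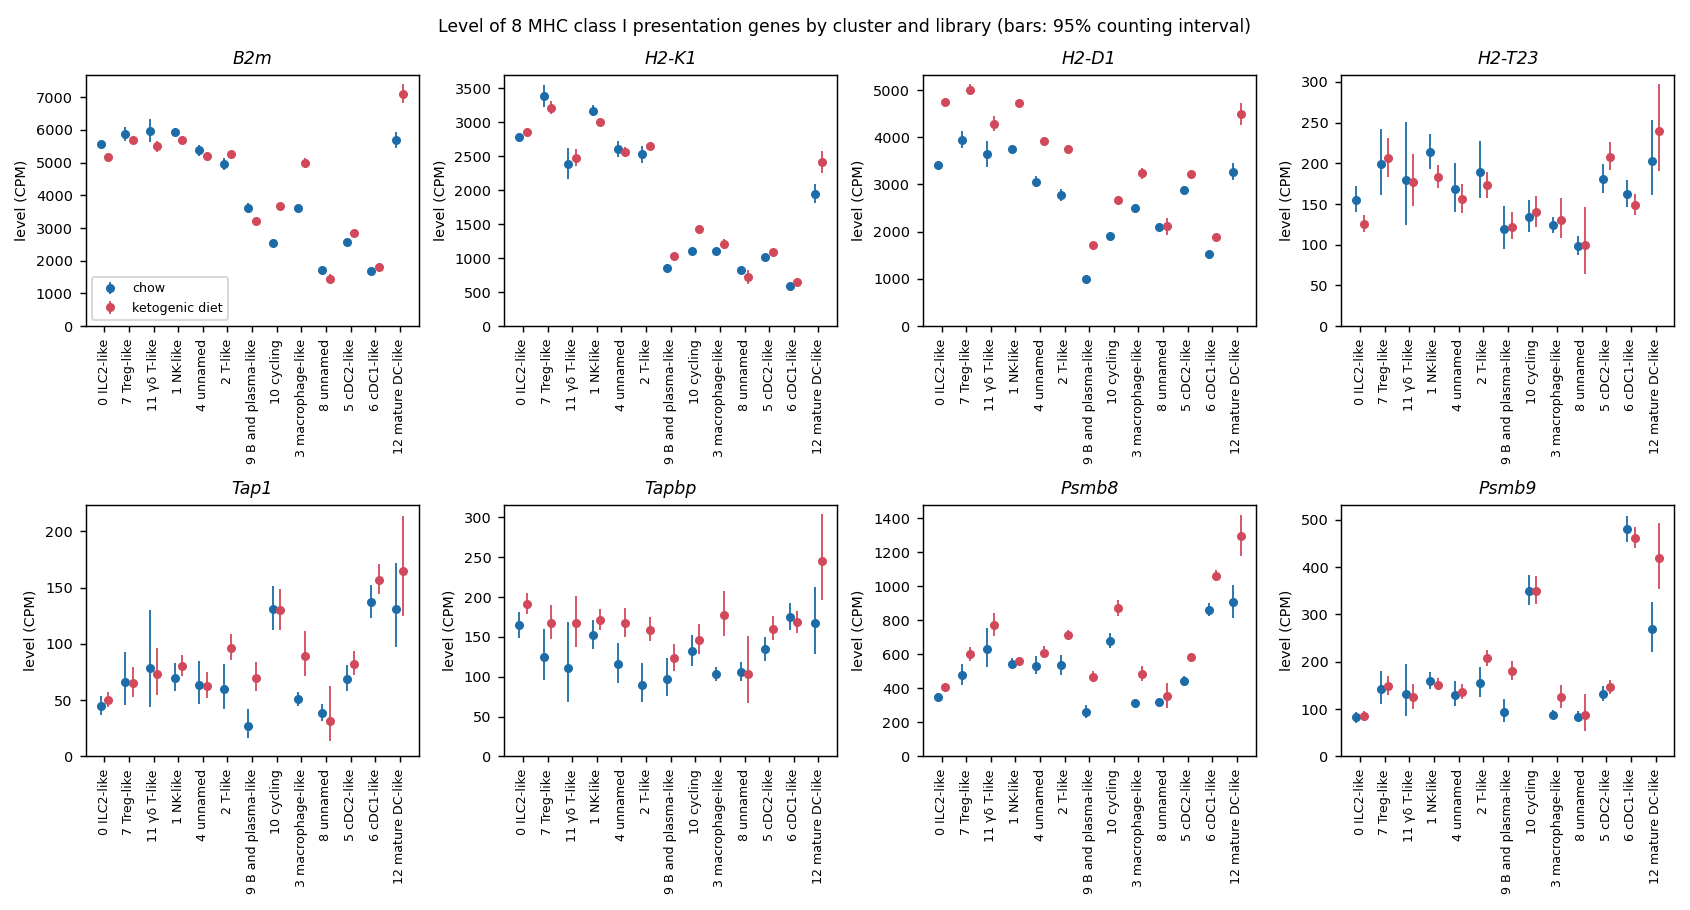
Level of each gene in CPM (vertical axis, linear and from 0) in the 13 clusters (horizontal axis), with chow in blue and the ketogenic diet in red; each point is 1 library's summed UMIs and each bar its exact 95% Poisson counting interval. As shares of a cluster's RNA, B2m, H2-K1 and H2-D1 are high on the left, where the T and innate lymphoid clusters are. Psmb9 stands at 481 and 462 CPM in the cDC1-like cluster and below 210 CPM in each cluster of T or innate lymphoid cells. UMIs per cell give another order.

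For 6 of the 8 members the same split appears when they are compared as profiles over the 26 sums (13 clusters in 2 libraries), on a log2(CPM + 20) scale. Pearson's r was 0.90 between B2m and H2-K1, 0.83 between H2-K1 and H2-D1 and 0.72 between B2m and H2-D1. It was 0.92 between Tap1 and Psmb8, 0.92 between Tap1 and Psmb9 and 0.86 between Psmb8 and Psmb9. Between these groups it ran from -0.20 for H2-K1 and Psmb9 to 0.27 for H2-D1 and Psmb8. H2-T23 and Tapbp belonged to neither group, with r of 0.60 between H2-T23 and B2m and 0.58 between H2-T23 and Psmb8, and 0.51 between Tapbp and H2-D1 and 0.62 between Tapbp and Psmb8. The Tapbp values differed between the libraries, with r over 13 clusters of -0.03 (chow) and 0.71 (ketogenic) for B2m and 0.21 and 0.67 for H2-D1. The sums share libraries, depth and total, so these coefficients describe the profiles and carry no test. Among 3919 genes with at least 500 UMIs in each library, the 5 closest to the mean profile of the 8 were Cnn2 (r = 0.83), Selplg (0.83), Psme2 (0.81), Fam96b (0.80) and Psme1 (0.80). Psme1 and Psme2 encode the activator that caps the immunoproteasome, Cnn2 an actin-binding calponin and Selplg a selectin ligand. For H2-K1 the closest genes were the other heavy chains H2-Q7 (0.97), H2-Q4 (0.96) and H2-Q6 (0.94), and for Psmb8 they were Tap1, Psme1 (0.91) and Psmb9. For H2-D1 the closest gene was Cnot4 (0.90), which is not a heavy chain.

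Between the diets, H2-D1 and Psmb8 were higher in the ketogenic library in all 13 clusters, while B2m and H2-K1 were close to even. With each cluster given the same weight in both libraries (its mean share of cells), the log2 ratio of ketogenic over chow CPM was 0.37 for H2-D1 (95% counting interval 0.35 to 0.39), 0.33 for Tapbp (0.25 to 0.42), 0.29 for Psmb8 (0.25 to 0.34) and 0.29 for Tap1 (0.17 to 0.41). It was 0.12 for Psmb9 (0.05 to 0.20), 0.02 for B2m (0.01 to 0.04), 0.02 for H2-K1 (-0.01 to 0.04) and -0.10 for H2-T23 (-0.19 to -0.02). The median of the 8 was 0.21, beside 0.06 over the 10361 genes with at least 100 UMIs. No member reached a 1.5-fold difference in either direction, which 5% of all genes did upward and 4.84% downward. Of the 8, 7 were higher by any amount, as were 56.6% of all genes. Without these weights the log2 ratio of B2m was 0.28, that of H2-K1 0.43 and that of H2-T23 0.10, so that H2-T23 turned and 8 of 8 were higher, and the chow library held the larger share of clusters 3 and 8, where H2-K1 was at 1106 and 827 CPM. Those 2 clusters made up 19.3% and 8.12% of the clustered chow cells against 2.61% and 0.845% of the ketogenic ones.

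Within clusters, 103 gene and cluster combinations reached 100 UMIs when both libraries were added, all of them except Tap1 in the γδ T-like cluster with 15 and 50 UMIs. At least a 1.5-fold higher level under the ketogenic diet was seen in 10 of the 103 (9.71%), beside 9.65% over all genes in all clusters. None was 1.5-fold lower, beside 6.23% over all genes. By any amount 76 of the 103 were higher (73.8%, beside 57.2%). The members thus exceeded the 1.5-fold mark about as often as genes in general did, while their share higher by any amount was above that of all genes. Relative to each cluster's median 6 passed the mark (beside 6.61% of all genes), and without clusters 3, 8 and 9, 3 of 79 did (beside 8.11%). Where they passed that mark it was in the B and plasma-like cluster (4 of 8), the macrophage-like cluster (3), the T-like cluster (2) and the mature DC-like cluster (1), and 9 of the 10 were genes of peptide supply and loading.

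**Figure D2:**
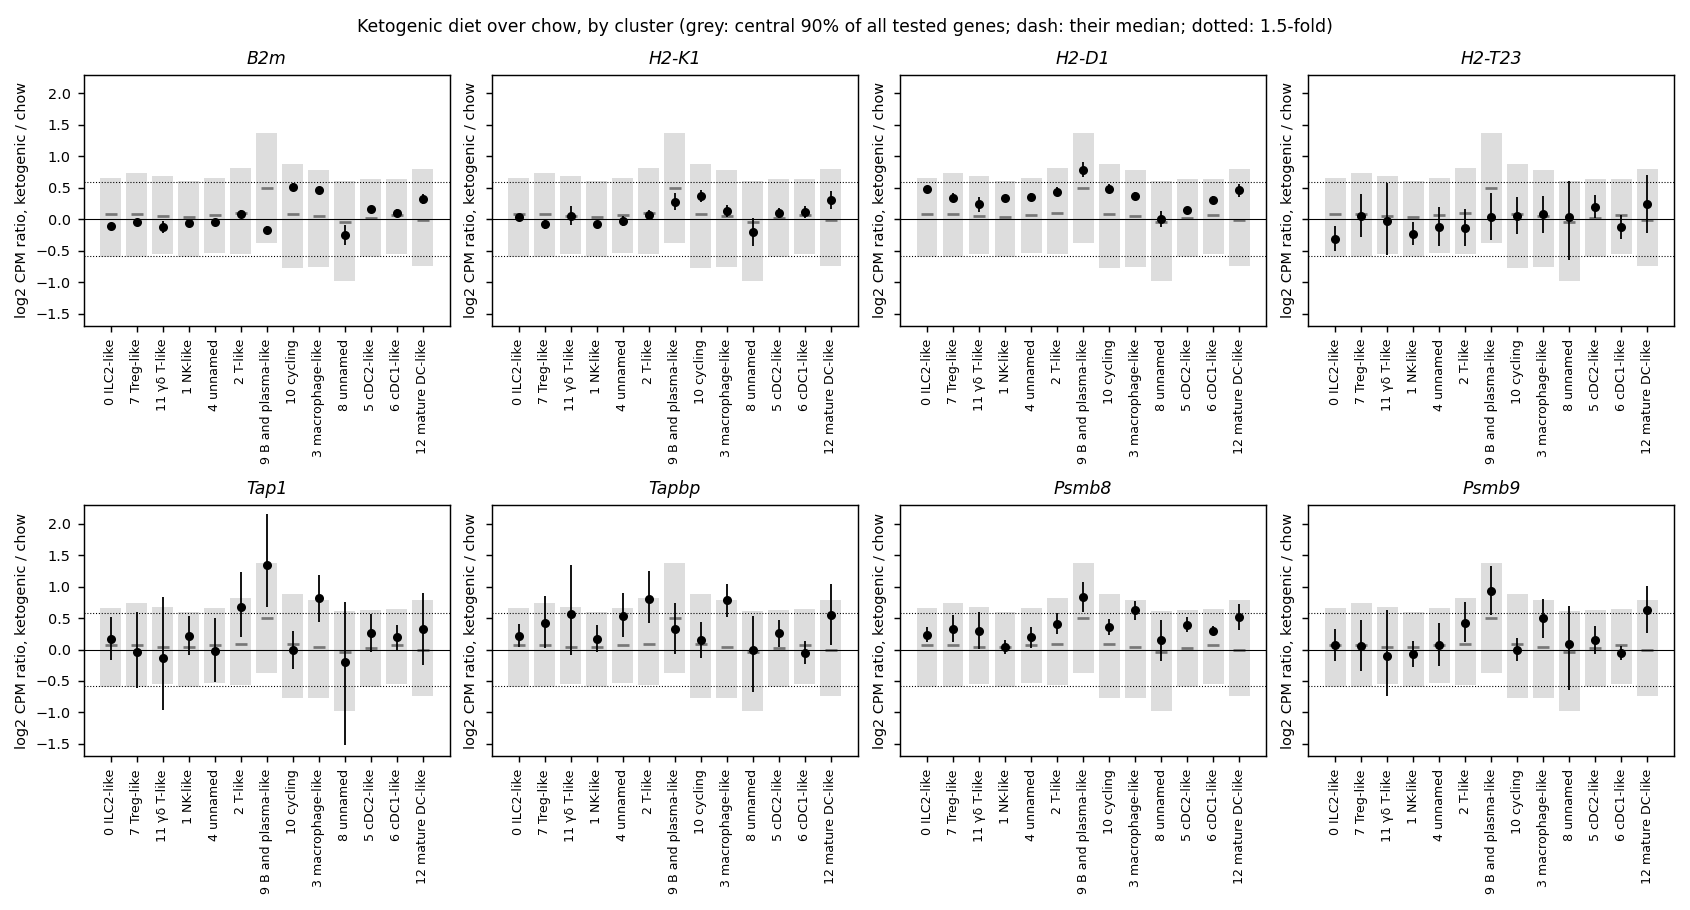
Log2 ratio of ketogenic over chow CPM (vertical axis) of each gene in the 13 clusters (horizontal axis), with exact 95% counting intervals as bars, beside the central 90% (grey) and median (dash) of all genes tested in that cluster; dotted lines mark 1.5-fold. H2-D1 lies above 0 in all 13 clusters, from 0.01 to 0.78, and most points of all 8 genes lie inside the grey range.

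H2-D1 was higher under the ketogenic diet throughout. In the ILC2-like cluster it was at 3420 and 4747 CPM in the chow and ketogenic libraries, a ratio of 1.39 (1.35 to 1.42). In the Treg-like cluster it was at 3946 and 5001 CPM, a ratio of 1.27 (1.20 to 1.33). These 2 clusters together show a difference larger than counting error in cells with high levels of the gene. In the Treg-like cluster the 7 class II genes summed to 11309 and 6995 CPM. The 10 macrophage markers summed to 217 and 72.1 CPM there (0 of 10 higher). The part of these genes in the H2-D1 difference was not tested. The H2-D1 ratio was 1.23 (1.19 to 1.29) in the cDC1-like cluster and 1.11 (1.08 to 1.15) in the cDC2-like cluster. It was 1.72 (1.59 to 1.87) in the B and plasma-like cluster, where most genes were higher. Relative to each cluster's median the log2 ratio of H2-D1 was 0.28 there, below the mature DC-like (0.46), cycling (0.40) and ILC2-like (0.39) clusters. The ratio was smallest in cluster 8, at 2102 and 2112 CPM (interval of the ratio 0.918 to 1.10), the one cluster of the 13 whose interval includes 1. Of the 7 members tested in every cluster, 2 (H2-D1 and Psmb8) were higher in all 13, and so were 89 of 595 genes (15%) tested in every cluster.

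H2-K1, the other classical heavy chain, differed less. In the ILC2-like cluster H2-K1 was at 2777 and 2855 CPM, a ratio of 1.03 (0.998 to 1.06), and in the NK-like cluster at 3166 and 2996 CPM, a ratio of 0.946 (0.916 to 0.977). H2-K1 was higher in 9 of 13 clusters, with the interval above 1 in 6 and below 1 in 1. Its ratio was 1.29 (1.21 to 1.38) in the cycling cluster, 1.24 (1.12 to 1.37) in the mature DC-like cluster and 1.22 (1.11 to 1.34) in the B and plasma-like cluster. Of the classical heavy-chain UMIs, H2-D1 therefore took a larger share under the ketogenic diet in 13 of 13 clusters, and the exact binomial intervals of the 2 libraries did not overlap in 8 of them. The share was 55.2% (54.4 to 56.0) of chow and 62.4% (61.9 to 63.0) of ketogenic UMIs in the ILC2-like cluster, and 54.0% and 62.5% in the B and plasma-like cluster. It was 74.0% and 74.7% in the cDC2-like cluster, where the intervals overlap. Across cell types under chow the share ran from 52.3% in the T-like cluster to 74.0% in the cDC2-like cluster, with 69.3% to 74.0% in the macrophage-like, cDC and Retnla-led clusters and 52.3% to 60.4% in the T, innate lymphoid and B and plasma-like ones. The gap between diets was thus widest, up to 8.45 percentage points, where the chow share was low. Close copies limit these counts to some degree. Of the 90-base stretches in the last 300 bases of their GENCODE transcripts, 4.76% for H2-D1 and 3.31% for H2-K1 also occur in another gene, among them H2-Q family genes and, for 2 stretches of H2-K1, H2-D1 itself. How reads matching several genes were counted is not given in the sources used here, and its part in the result was not tested.

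**Figure D3:**
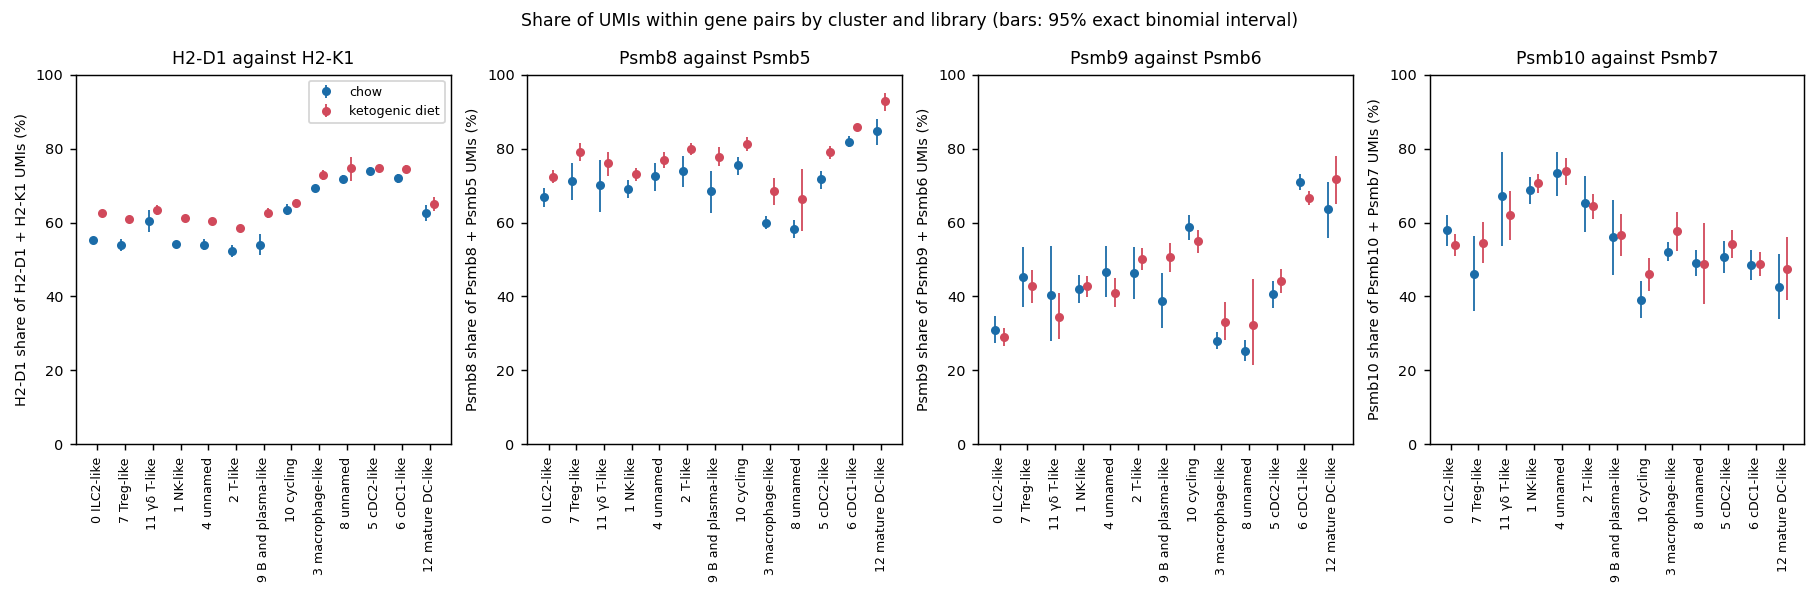
Share of UMIs (vertical axis, percent) taken by the first gene of each pair in the 13 clusters (horizontal axis), chow in blue and ketogenic diet in red, with exact 95% binomial intervals as bars. The H2-D1 share and the Psmb8 share are higher under the ketogenic diet in 13 of 13 clusters, while the Psmb9 share is higher in 7 and the Psmb10 share in 9.

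In single ILC2-like and Treg-like cells the H2-D1 difference was present at each quartile. The median H2-D1 share of an ILC2-like cell's UMIs was 0.331% under chow (quartiles 0.239% and 0.431%) and 0.472% under the ketogenic diet (0.362% and 0.576%). In Treg-like cells it was 0.429% (0.328% and 0.538%) and 0.535% (0.405% and 0.666%). The distributions overlap. In cluster 8 the median was not higher under the ketogenic diet. For H2-K1 the ILC2-like medians were 0.256% and 0.269%. In the cycling cluster B2m had a median of 0.213% and an upper quartile of 0.368% under chow, against 0.357% and 0.636% under the ketogenic diet. That cluster mixes cell kinds: 7 class II genes (H2-Aa, H2-Ab1, H2-Eb1, H2-DMa, H2-DMb1, Cd74 and Ciita) summed to 44251 and 32954 CPM there and the 10 macrophage markers to 446 and 209 CPM, while the 6 B cell markers summed to 413 and 1092 CPM (6 of 6 higher) and the immunoglobulin genes to 1777 and 4383 CPM. The part of these markers in its B2m difference (log2 ratio 0.52) was not tested.

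**Figure D4:**
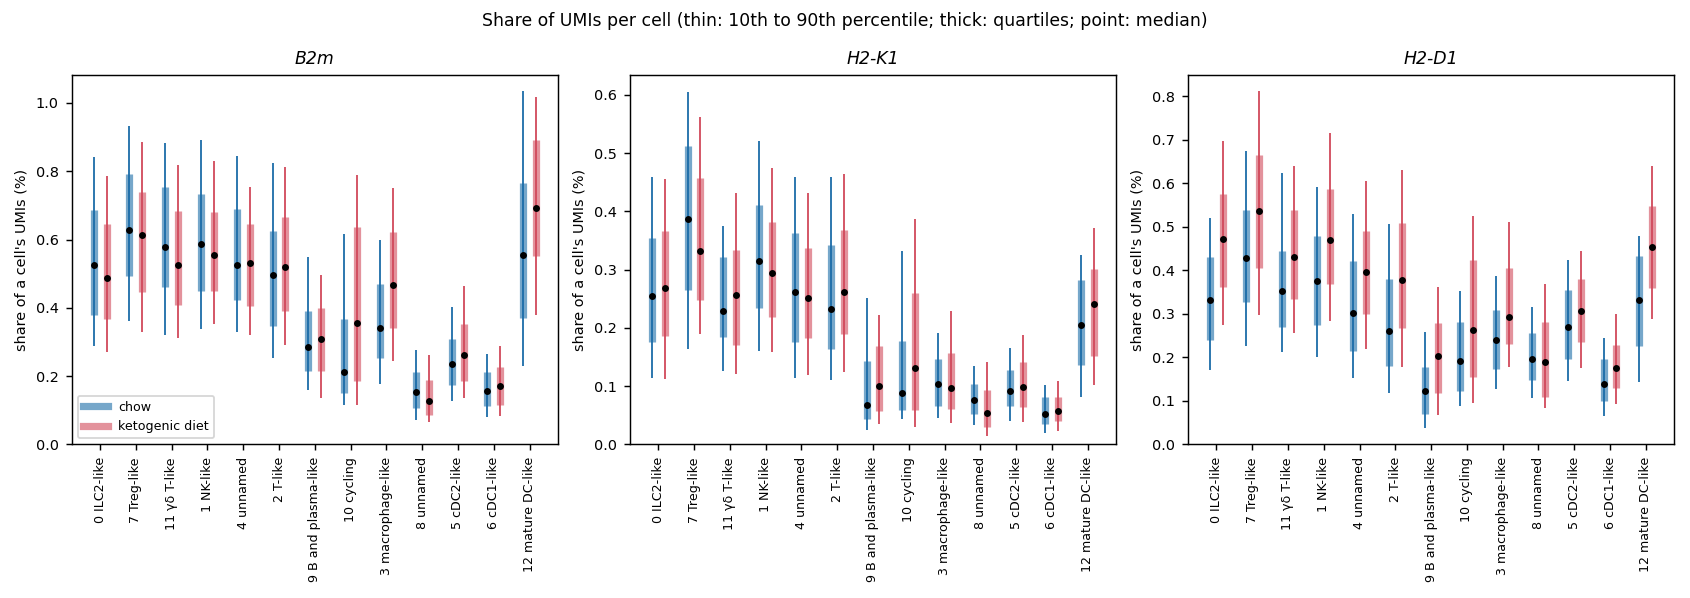
Share of a cell's UMIs (vertical axis, percent, from 0) for B2m, H2-K1 and H2-D1 in the 13 clusters (horizontal axis), chow in blue and ketogenic diet in red; points are medians over cells, thick bars the quartiles and thin bars the 10th to 90th percentile. The median of H2-D1 in ILC2-like cells is 0.331% under chow and 0.472% under the ketogenic diet, whereas the medians of H2-K1 are 0.256% and 0.269%.

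B2m differed in both directions. It was at 5582 and 5181 CPM in the ILC2-like cluster (ratio 0.928, 0.908 to 0.948). In the macrophage-like cluster it was at 3606 and 4990.5 CPM (1.38, 1.34 to 1.43), and in the mature DC-like cluster at 5687 and 7105 CPM (interval of the ratio 1.18 to 1.32). It was lower in 7 clusters, most of them lymphoid, and higher in 6. H2-T23 was at 155 and 125 CPM in the ILC2-like cluster (0.809, 0.707 to 0.925) and at 214 and 183 CPM in the NK-like cluster (0.855, 0.753 to 0.972). It was higher in 7 of 13 clusters (4 of 13 relative to the cluster medians), but its interval excluded 1 on the upper side only in the cDC2-like cluster, at 181 and 208 CPM (1.15, 1.01 to 1.31).

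Psmb8, the immunoproteasome subunit that takes the place of Psmb5, was higher in all 13 clusters, and its interval lay above 1 in 11. It was at 443 and 582 CPM in the cDC2-like cluster (ratio 1.31, 1.21 to 1.43), and at 316 and 487 CPM in the macrophage-like cluster (1.54, 1.38 to 1.72). In the NK-like cluster it was at 546 and 562 CPM (1.03, 0.952 to 1.11). Psmb5 itself had lower values, with an equal-weight log2 ratio of -0.14 and a higher level in 2 of 12 clusters tested. The share of Psmb8 among the UMIs of the pair was therefore higher in 13 of 13 clusters, with intervals apart in 9, by 3.83 to 9.30 percentage points. It was 84.7% and 92.8% in the mature DC-like cluster, 81.8% and 85.7% in the cDC1-like cluster and 60.0% and 68.4% in the macrophage-like cluster.

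The other immunoproteasome subunits did not share this pattern. Psmb9, which takes the place of Psmb6, was higher under the ketogenic diet in the B and plasma-like cluster (94.9 and 181 CPM), the mature DC-like cluster (269.6 and 419 CPM), the macrophage-like cluster (88.6 and 125 CPM) and the T-like cluster (154 and 208 CPM). In the cDC1-like cluster, where it was highest, it was at 481 and 462 CPM (ratio 0.962, 0.891 to 1.04). Its share of the Psmb9 and Psmb6 UMIs there was 71.0% (68.8 to 73.2) under chow and 66.7% (64.8 to 68.6) under the ketogenic diet, lower with intervals apart, while the Psmb8 share in the same cells was higher. In the B and plasma-like cluster, the one other cluster with intervals apart for this pair, the Psmb9 share was higher, at 38.7% (31.4 to 46.4) and 50.6% (46.6 to 54.5). Over all 3 replacement pairs, Psmb10 with Psmb7 being the third, 29 of 39 cluster shares were higher under the ketogenic diet, with 13 from Psmb8, 9 from Psmb10 and 7 from Psmb9. Intervals were apart upward in 9 clusters for Psmb8 and 1 for Psmb9, and apart downward in 1 for Psmb9. For Psmb10 they were apart in no cluster.

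Tap1 and Tapbp had fewer UMIs and wider intervals. Tapbp was at 90.1 and 159 CPM in the T-like cluster (ratio 1.76, 1.33 to 2.37) and at 103 and 178 CPM in the macrophage-like cluster (1.73, 1.44 to 2.06). It was higher in 11 of 13 clusters, the cDC1-like cluster (175 and 169 CPM) and cluster 8 (106 and 103 CPM) being the others. Tap1 was at 59.5 and 96.5 CPM in the T-like cluster (1.62, 1.15 to 2.35) and at 51.0 and 89.6 CPM in the macrophage-like cluster (1.76, 1.35 to 2.27). In cluster 4 it was at 63.7 and 62.9 CPM (0.987, 0.701 to 1.41). In cluster 8 the ketogenic value rests on 8 UMIs of Tap1.

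The B and plasma-like cluster needs its own reading, because the median of all 1962 genes tested there was a log2 ratio of 0.50, whereas it lay between -0.04 and 0.09 in the other 12 clusters. Immunoglobulin genes took 47.7% of that cluster's UMIs in the chow library and 29.1% in the ketogenic one, and the remaining genes together took the rest. There 42.8% of all genes were at least 1.5-fold higher, beside 4 of the 8 members. Relative to the cluster's median, the log2 ratios were 0.84 for Tap1, 0.42 for Psmb9, 0.33 for Psmb8 and 0.28 for H2-D1. Those of Tapbp (-0.18), H2-K1 (-0.22), H2-T23 (-0.47) and B2m (-0.67) were below it. The Tap1 value rests on 19 chow and 123 ketogenic UMIs, and its ratio before centring has an interval of 1.60 to 4.47. The 6 plasma cell markers summed to 46564 and 25288 CPM there (1 of 6 higher), the 8 cycling markers to 122 and 557 CPM (8 of 8 higher) and the 7 class II genes to 13057 and 21788 CPM (7 of 7 higher). The part of these markers in the members' values was not tested.

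In the macrophage-like cluster all 8 members were higher by some amount, beside 54.6% of all genes. Their median log2 ratio was 0.49, beside 0.04 over all 4983 genes, and 3 of 8 passed 1.5-fold, beside 9.39% of all genes. The cluster is also where the interferon response list had its highest median. Of the 22 in that list 14 had enough UMIs there, and 12 of them were at least 1.5-fold higher under the ketogenic diet, with a median of 1.39. Irf7, the transcription factor that amplifies type I interferon, was at 33.9 and 170 CPM, and Gbp2, a guanylate-binding protein, at 21.9 and 88.5 CPM. The exceptions were Irf9 (29.5 and 35.8 CPM) and Bst2 (177 and 189 CPM). Of the other class I genes, H2-T22, a non-classical heavy chain recognised by some γδ T cells, was at 35.2 and 103 CPM there. The 10 macrophage markers summed to 6082 and 7410 CPM (4 of 10 higher), the 7 monocyte markers to 5045 and 6214 CPM (6 of 7 higher), and none of these 17 markers was at 0. In the same cluster the 5 neutrophil markers summed to 301 and 58.2 CPM and the 7 class II genes to 42085 and 32526 CPM, and the part of either in the members' values was not tested. With 145 ketogenic cells, a different make-up of the cluster and a different level per cell cannot be told apart.

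The T-like cluster had a median of 0.42 over the 8 members, beside 0.09 over 3634 genes, with 7 of 8 higher by some amount (beside 60.7% of all genes) and 2 of 8 past 1.5-fold (beside 11.6%). In the mature DC-like cluster, of 60 chow and 49 ketogenic cells, all 8 were higher (beside 49.5% of all genes) with a median of 0.39, beside -0.00 over 790 genes, and 1 of 8 (Psmb9) passed 1.5-fold, beside 8.35%. Markers of other cells differed there too. The 7 cDC2 markers summed to 467 and 211 CPM (1 of 7 higher) and the 8 cycling markers to 134 and 402 CPM (8 of 8 higher). The 10 macrophage markers, 1 of them without a UMI, summed to 211 and 75.2 CPM, and none of those detected was higher. In the T-like cluster the 10 macrophage markers summed to 179 and 45.2 CPM and the 7 class II genes to 4102 and 1798 CPM. The part of these markers in the members' values was not tested. In the cDC2-like cluster all 8 members were also higher (beside 53.6% of all genes), with a median of 0.18 beside 0.03 over all genes and none past 1.5-fold, and the interferon list had 0 of 7 genes past it in either direction, beside 6.34% of all genes upward and 5.19% downward. In the NK-like, cDC1-like and Treg-like clusters the median of the members was -0.01, 0.11 and 0.05, close to the 0.04, 0.07 and 0.08 of all genes there. The interferon list followed in the T-like cluster, with 5 of 10 genes past 1.5-fold upward, but not in the cDC1-like cluster, with 0 of 5 upward and 2 of 5 downward, beside 6.75% and 4.20% of all genes. In the mature DC-like cluster only 1 gene of that list, Bst2, had enough UMIs, and it was past 1.5-fold downward (beside 7.97% of all genes), at 208 and 124 CPM. In cluster 8 both genes with enough UMIs, Cxcl10 and Bst2, were past it downward (beside 14.3%).

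Over the wider pathway, counts are of gene and cluster combinations with at least 100 UMIs, of which 9.65% of all genes' passed 1.5-fold upward and 6.23% downward, with a median log2 ratio of 0.07. The 4 light and heavy chain members gave 1 of 52 upward (median 0.08), and the 4 supply and loading members 9 of 51 (0.26). The other heavy chains and class I-like molecules gave 14 of 70 upward and 2 downward (0.18). Other loading and chaperone genes gave 4 of 85 upward and 1 downward (0.05). The rest of the immunoproteasome and its activator gave 3 of 39 (0.30), the constitutive catalytic subunits 0 of 38 in either direction (0.10), and the remaining proteasome core 6 of 143 (0.11). H2-T22 alone gave 9 of the 14 upward calls of the other heavy chains, and clusters 3 and 9 gave 6 of the 9 of the supply and loading members. Regulators of the pathway gave 23 of 158 upward and 8 downward (0.13), and the interferon response 22 of 71 upward and 6 downward (0.03), with 12 of the 22 in the macrophage-like cluster. With equal cluster weights 18 of 21 interferon genes were higher, 6 of them past 1.5-fold and none past it downward, with a median of 0.52. H2-T10, also on the list, is not in the gene table.

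Of the other class I genes, H2-T22 was the heavy chain that passed 1.5-fold in at least 3 clusters. It did so in 9 of 11 clusters tested, and its equal-weight log2 ratio was 0.59. In the ILC2-like cluster it was at 90.4 and 138 CPM, and in the cDC1-like cluster at 27.5 and 54.0 CPM. Of its 90-base stretches near the transcript end, 7.08% also occur in H2-T10. H2-Q7, whose profile was closest to that of H2-K1, was at 752 and 713 CPM in the ILC2-like cluster, and passed 1.5-fold in 1 of 13. Tapbpl, which edits peptides on class I molecules, was higher in all 10 clusters tested and past 1.5-fold in 3, and Tap2, the partner chain of Tap1, was higher in all 12 tested with an equal-weight log2 ratio of 0.27. Canx, the chaperone of newly made heavy chains, was lower in all 12 clusters tested, with a log2 ratio of -0.33.

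Among regulators, Irf8 passed 1.5-fold upward in 5 of 11 clusters (equal-weight log2 ratio 0.46) and the interferon receptor chain Ifnar1 in 5 of 11 (0.44). Of the interferon list, the sensor Zbp1 did so in 4 of 7 (0.57). Nfya, a subunit of the factor that binds the CCAAT box, was the 1 regulator past 1.5-fold with the same cluster weights, downward, at -0.68 (-0.92 to -0.44), and had enough UMIs in 4 clusters. Irf1, an activator of class I promoters, passed it in none of 10 (0.23). Nlrc5, the activator specific to class I genes, had enough UMIs in 4 clusters and was lower in all 4, past 1.5-fold in 2 (-0.26, but 0.27 without the cluster weights).

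The class II genes went the other way in several clusters, with 5 of 78 combinations past 1.5-fold upward and 33 downward. H2-Aa, H2-Ab1, H2-Eb1, H2-DMa, H2-DMb1 and Cd74 passed 1.5-fold downward in 5 or 6 clusters each. Those clusters were mostly of T and innate lymphoid cells. The 7 genes of the list summed to 3534 and 1716 CPM in the ILC2-like cluster, beside 89588 and 96727 CPM in the cDC2-like cluster. In the ILC2-like cluster the 10 macrophage markers also summed to 163 and 46.1 CPM, with 0 of 10 higher. Both gene sets thus took a larger share of this lymphoid cluster's UMIs in the chow library, and their own part in the class I results was not tested. Only each library's average profile as a whole was subtracted, as free RNA. With 10% of each library's average profile subtracted from every cluster, H2-D1 was higher in 12 of 13 clusters, Psmb8 in 12 of 13, and the H2-D1 share in 13 of 13.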

How the data were processed

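Raw UMI counts per gene and cell were deposited by the authors for 1 chow and 1 ketogenic library. Per the submitters' processing notes, Cell Ranger, Seurat and the mm10 build were used; versions, annotation and settings are not given in the sources used here. The authors' deposited table of clusters (resolution 0.5) assigned 98.1% and 99.0% of cells. Its t-SNE coordinates, score values the authors computed with settings not stated, were not used. Of 28692 gene IDs, 28339 (98.8%) are in GENCODE M21.

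UMIs were summed per cluster and library with Python 3.11.15, numpy 2.4.6, pandas 2.3.3 and scipy 1.17.1. Sums have exact Poisson intervals, shares exact binomial (Clopper-Pearson) intervals and ratios exact conditional intervals, all at 95% and for counting error only. Log2 ratios use 0.5 added to each count, for genes whose UMIs in a cluster reach 100 in total. Equal-weight ratios weight each cluster by its mean cell share over the libraries. Doublets were not called and no cell was removed. The interval code was tested on simulated counts.

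The 8 genes, the pathway lists and the marker lists were chosen with earlier results of these data known. Other genes are named if at least 1.5-fold different in 1 direction in at least 3 clusters, up to 6 a direction, except a few items not reported here; Irf7, Irf9, Bst2, Gbp2, H2-Q7, Tap2, Canx, Irf1, Nlrc5, Nfya, Psmb5 and Psmb10 were picked with their values known. A cluster was named when at least 3 markers of a type were 2-fold raised on CPM + 20, at least 1 among its 10 leading genes. Alternatives covered centring, totals, per-cell means, free RNA, depth, minimum counts and fold.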

Additional observations from a re-analysis of the deposited data

Results flagged for a closer look

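The cells that the authors' cluster table leaves out also carried the 8 genes. In the 87 chow cells outside the table the 8 genes summed to 9799 CPM (2178 UMIs, 95% counting interval 9391 to 10219), and in the 55 ketogenic cells to 11794 CPM (2071 UMIs, 11292 to 12313). Both lie far above the limit of 3 counts, which is 13.5 and 17.1 CPM. The clustered cells of the same libraries were at 8675 and 11294 CPM. Mitochondrial genes took 6.69% and 6.86% of the UMIs of the cells left out, against 1.97% and 1.83% of the clustered cells. B2m was higher under the ketogenic diet in the cycling cluster (log2 ratio 0.52) and lower in cluster 8 (-0.25), a gap of 0.77 on the log2 scale, and the difference was not tested. Cluster 8 held 47 ketogenic cells.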

How the results depend on the processing

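No paired analysis was possible because each diet has 1 library, and for the same reason no replicate could be left out. No result turned its direction past the 1.5-fold mark under any alternative run. Of 10 combinations at least 1.5-fold higher, 6 were counted when ratios were centred on the cluster median, 34 at the lower fold mark tried and 1 at a 2-fold mark, and 3 without clusters 3, 8 and 9, an alternative chosen after seeing the data. In place of none lower, 1 was counted after centring, 1 with the mean of per-cell CPM and 1 without the 5% of cells with the most UMIs (also chosen after seeing the data). The median log2 ratio of the 8 genes, 0.21 with equal cluster weights, was 0.37 without them. H2-T23 was higher in 4 of 13 clusters after centring and in 4 of 10 without clusters 3, 8 and 9, in place of 7 of 13. After centring, 12 of 103 combinations changed sign, and 6 of the 10 past 1.5-fold stayed past it. With totals that leave out mitochondrial, ribosomal, immunoglobulin and haemoglobin genes, 6 changed sign and 7 of the 10 stayed, and with per-cell means 4 and 9 did. H2-D1 and Psmb8 were each higher in 12 or 13 of 13 clusters under every alternative run on them with all clusters. Depth limits the members with few UMIs, and Tap1 could not be tested in the γδ T-like cluster.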
